A study of Rattus norvegicus with 4 samples.

Results

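The genes described here are 9 ion channel pore genes tied to pacemaking: Hcn2, Hcn3, Hcn4, Cacna1c, Cacna1d, Cacna1g, Cacna1h, Cacna1i and Nalcn. They were taken by symbol from the 32883 genes of the count tables, by a rule that uses no measured value, and all 9 were found. The list itself was chosen with earlier results of these data known. They were followed across nuclei of the rat ventral tegmental area, a midbrain region of dopamine, GABA and glutamate neurons, sorted into 7 gates by the raw molecule counts (UMIs) of a few other genes. The data are single-nucleus RNA-seq libraries (10x Genomics 3′ chemistry) from adult Sprague-Dawley rats of 90 to 120 days, which had received no experimental treatment. There are 2 female and 2 male libraries, and each holds the pooled tissue of 3 rats of that sex, so single animals cannot be told apart.

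Pacemaker neurons fire without synaptic input. HCN channels open on hyperpolarization and are modulated by cyclic AMP, and their inward current brings the membrane back toward threshold. The L-type calcium channels Cav1.2 (Cacna1c) and Cav1.3 (Cacna1d) differ in gating, since Cav1.3 opens at more negative voltages and takes part in the slow oscillations of midbrain dopamine neurons. T-type channels Cav3.1, Cav3.2 and Cav3.3 (Cacna1g, Cacna1h and Cacna1i) open near rest and feed rebound bursts. NALCN (Nalcn) passes a steady sodium leak that keeps neurons depolarized, in a complex with UNC79 and UNC80. In glia some of these pores are known as well, including L-type channels of oligodendrocyte precursors.

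After removal of nuclei of low quality and of doublet calls, 20620 of 21606 barcodes were kept, and 14767 of them (71.6%) fell in a gate. The 4 libraries held 19714338 to 25824289 UMIs, with medians of 2381 to 3861 UMIs per kept nucleus, and 36 barcode sequences occurred in 2 or more libraries. The dopamine gate (at least 2 UMIs each of Th and Slc6a3) held 308 nuclei, 70 to 86 per library. A small gate of nuclei with Slc26a7 (at least 2 UMIs) and Gad2 held 93, or 12 to 32 per library. The GABA gate (Gad1 at least 2) held 1135 and the glutamate gate (Slc17a6 at least 2, no Gad1) 1528. Among glia the oligodendrocyte gate (Mog and Mobp) held 8516 nuclei, the precursor gate (Pdgfra at least 2) 1335 and the astrocyte gate (Gja1 and Aqp4) 1852. The neuron gates ask for UMIs of set genes and were deeper, with median UMIs of 7515 to 9113 per nucleus against 2400.5 to 3310.5 in the glia gates.

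The gates were checked with markers that took no part in gating. The 8 dopamine markers summed to 2507 to 2989 CPM (UMIs scaled to a total of 1000000 in each sum) in the dopamine gate and to 82.7 to 109.6 in the GABA gate. In the Slc26a7 gate they still summed to 1206 to 1430 CPM. The vesicular GABA transporter Slc32a1 was as high there as in the GABA gate (267 and 257 CPM), against 13.9 CPM in the glutamate gate. Of the glutamate markers, Cbln1 was 40.8 ± 9.27 CPM in the glutamate gate, 27.3 ± 18.0 in the Slc26a7 gate and 4.19 ± 2.29 in the GABA gate (SD, n = 4), while Slc17a7 and Slc17a8 were at 2.34 and 4.59 CPM in the glutamate gate. Slc17a6, on which the glutamate gate was cut, stood at 170 CPM in the Slc26a7 gate. That gate therefore carried dopamine, GABA and glutamate markers together, and is called here by its rule. The overlap also runs the other way: 19 dopamine-gate nuclei passed the Slc26a7 rule and 19 passed the glutamate rule.

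All 9 genes were detected in every neuron gate, and 8 of them were far lower in the oligodendrocyte gate, where Hcn2 alone was higher. Each gene was summed over the nuclei of a gate in each library and given as CPM of that sum. These are levels from 3′ tags with no length scale, so they are compared across gates within a gene and never between genes.

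**Figure D1:**
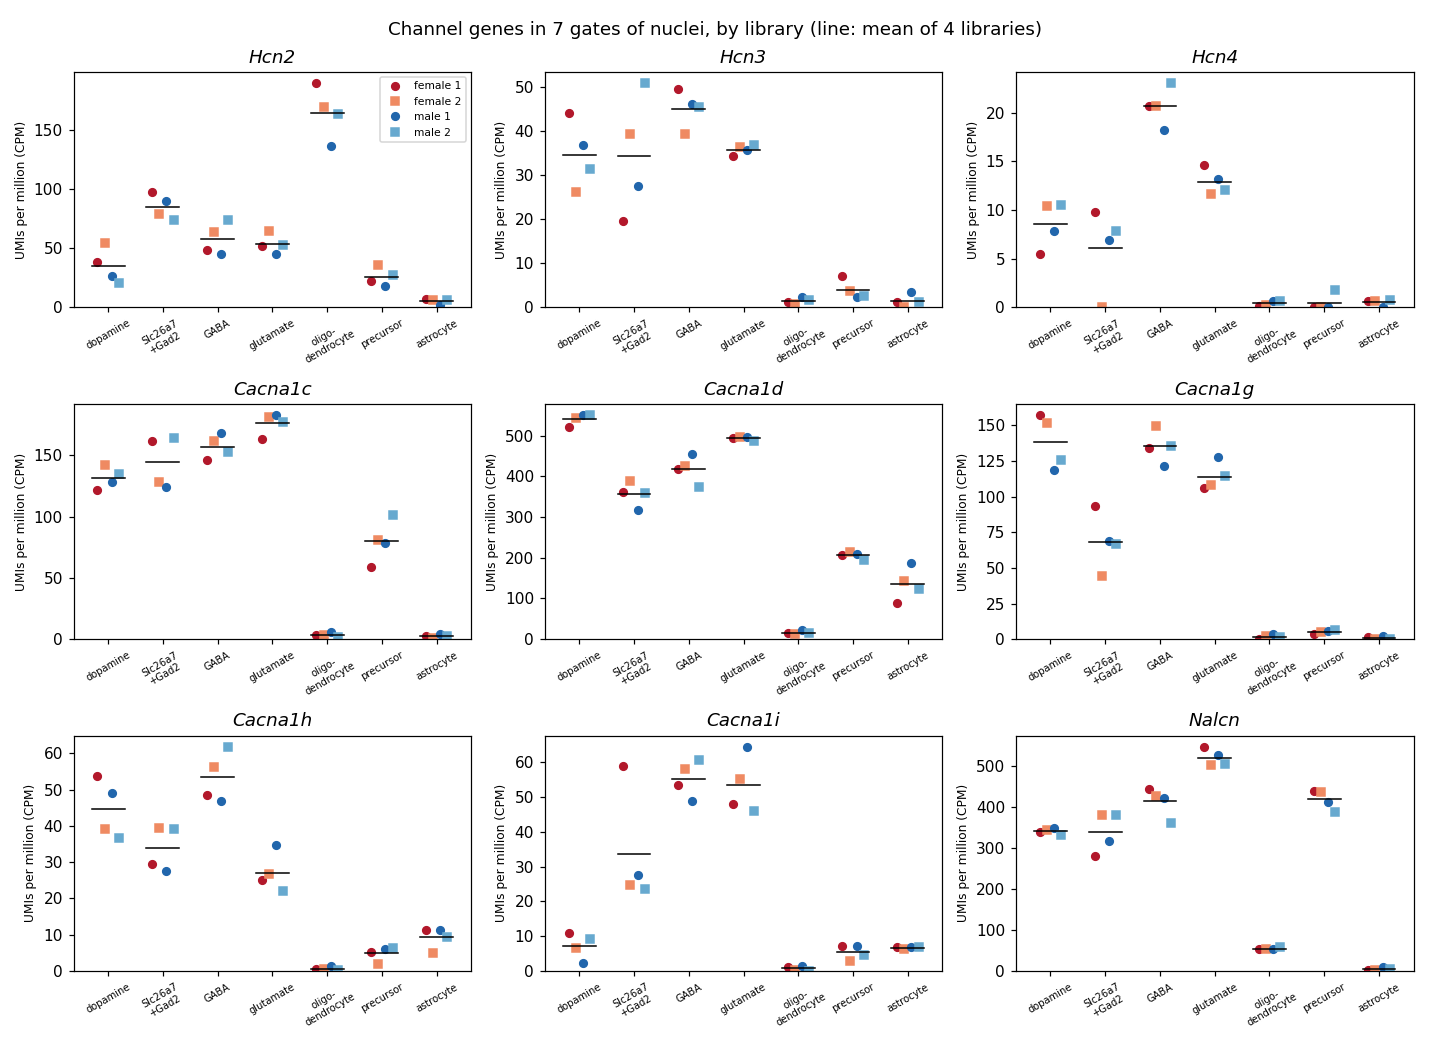
Level of each of the 9 channel genes (y axis, CPM of the summed gate) in 7 gates of nuclei (x axis), with a point per library and a line at the mean of the 4 libraries. Hcn2 is highest in the oligodendrocyte gate, where each library lies between 136.5 and 190.2 CPM, and Cacna1i in the dopamine gate lies between 2.24 and 11.04 CPM, below all 3 other neuron gates.

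With each nucleus thinned to 2000 UMIs, 90.7% ± 0.744 (SD, n = 4 libraries) of dopamine-gate nuclei held a UMI of at least 1 of the 9 genes. The glutamate gate stood at 93.2% ± 0.286, the precursor gate at 73.9% ± 2.19, the oligodendrocyte gate at 34.0% ± 1.44 and the astrocyte gate at 24.1% ± 3.93. A nucleus thus seldom showed more than a few of them at this depth: the mean was 1.80 genes per dopamine-gate nucleus and 0.252 per astrocyte. Thinning left out 3065 oligodendrocyte-gate, 335 precursor-gate, 312 astrocyte-gate, 12 glutamate-gate and 3 GABA-gate nuclei under that depth, and none of the dopamine or Slc26a7 gates.

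**Figure D2:**
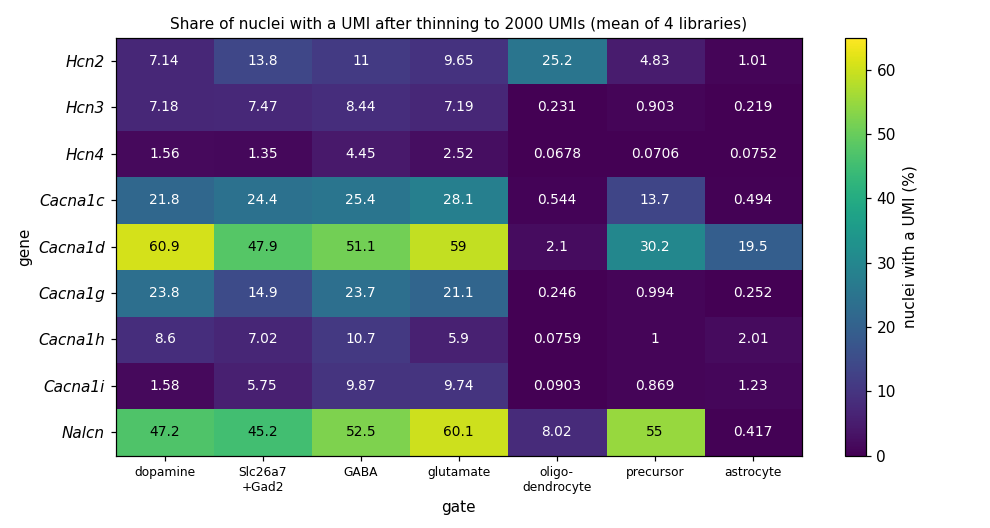
Share of nuclei with at least 1 UMI of each gene (colour and printed number, percent, mean of 4 libraries) by gate (x axis) and gene (y axis), after thinning to 2000 UMIs. Cacna1d reaches 60.9% of dopamine-gate nuclei and 2.10% of oligodendrocyte-gate nuclei, while Hcn2 reaches 7.14% and 25.2%.

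Hcn2 encodes a widely expressed HCN pore with strong modulation by cyclic AMP. Its level in the dopamine gate was 38.6 and 54.8 CPM in the females and 26.8 and 21.0 CPM in the males. In the GABA gate it was 48.6, 64.0, 45.0 and 74.2 CPM (female 1, female 2, male 1, male 2), and in the glutamate gate 51.9, 64.5, 45.3 and 53.2 CPM. The dopamine gate overlapped both, though in each library the dopamine value was the lower. The Slc26a7 gate stood above them at 98.0, 78.9, 89.8 and 74.4 CPM, the highest of the neuron gates, though level with GABA nuclei in male library 2. Its difference from GABA nuclei did not pass the edgeR test (0.56 ± 0.23, adjusted p = 0.140). Hcn2 in dopamine nuclei was lower than in GABA nuclei (log2 fold change -0.64 ± 0.18 SE, adjusted p = 0.00634), glutamate nuclei (-0.54 ± 0.18, 0.0217) and the Slc26a7 gate (-1.20 ± 0.27, 0.00163), all by the quasi-likelihood test of edgeR after Benjamini-Hochberg adjustment. Without male library 2 the GABA and glutamate differences were -0.34 (adjusted p = 0.163) and -0.37 (0.120). The glutamate call was also lost without male library 1 (-0.50, 0.0911), without the library block (-0.53, 0.0907) and with nuclei of 2 gates set aside (-0.45, 0.0699). Setting those nuclei aside moved the Slc26a7 difference to -0.74 (0.231). It also left 5 nuclei of that gate in male library 1, too few for a sum, so that sum was dropped.

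Those calls belong to whole-table fits in which many genes differ, so the share of all tested genes that was called is given beside the counts. Between dopamine and GABA nuclei 32.2% of 11341 genes were called (15.4% higher and 16.8% lower in dopamine nuclei), and 5 of the 9 channel genes, 1 higher and 4 lower. Between dopamine and glutamate nuclei 27.1% were called (13.8% higher, 13.3% lower), and 7 of the 9 channel genes, 3 higher and 4 lower. Between dopamine nuclei and the Slc26a7 gate 16% were called (8.85% higher, 7.12% lower), and 4 of the 9, 2 higher and 2 lower. The median log2 fold change of the 9 genes was -0.22 against GABA nuclei and -0.35 against glutamate nuclei, beside -0.02 and -0.00225 for all genes tested. These comparisons use the same dopamine sums, so they are not independent of each other.

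**Figure D3:**
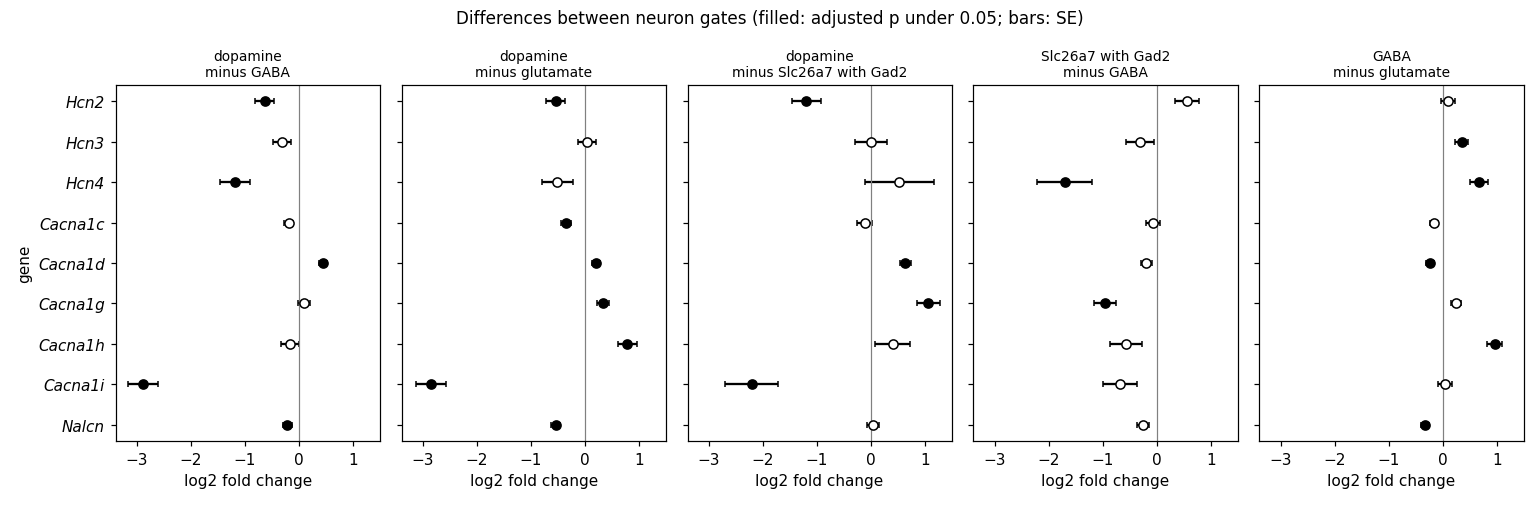
Log2 fold change (x axis) of the 9 channel genes (y axis) in 5 comparisons of neuron gates, with bars of 1 SE and filled points where the adjusted p is under 0.05. Cacna1i lies at -2.89, -2.85 and -2.21 in the 3 dopamine comparisons, and Cacna1d lies above 0 in all 3.

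Hcn3, an HCN pore with slow kinetics and little response to cyclic AMP, lay between 19.6 and 50.9 CPM in every library of the neuron gates. Dopamine nuclei held 44.2, 26.1, 36.9 and 31.5 CPM and glutamate nuclei 34.2, 36.3, 35.8 and 36.8 CPM, so the dopamine libraries spread around the glutamate ones. The difference was 0.03 ± 0.16 on the log2 scale (adjusted p = 0.915), and against GABA nuclei -0.32 ± 0.16 (0.142). GABA nuclei were above glutamate nuclei in every library (45.1 ± 4.21 and 35.8 ± 1.11 CPM, SD, n = 4) with a log2 fold change of 0.35 ± 0.12 and an adjusted p of 0.0415. That call was lost in 9 alternatives, among them DESeq2 (0.131) and each library left out in turn (0.0582 to 0.209).

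Hcn4, the pore of the classical cardiac pacemaker current, was sparse in dopamine nuclei, with 27 UMIs over 308 nuclei. Its level was 5.52, 10.4, 7.83 and 10.5 CPM there, 20.7, 20.7, 18.2 and 23.1 CPM in GABA nuclei and 14.6, 11.6, 13.2 and 12.1 CPM in glutamate nuclei. The 3 gates did not overlap and ran from GABA to glutamate to dopamine. Dopamine nuclei were lower than GABA nuclei (-1.19 ± 0.27, adjusted p = 0.000986). The step from glutamate to dopamine nuclei did not pass the test (-0.52 ± 0.29, 0.199), whereas the step from GABA to glutamate nuclei did (0.67 ± 0.17 higher in GABA, 0.00601) and was lost without male library 2 (0.57, 0.0926). In the Slc26a7 gate only 5 UMIs of Hcn4 were counted, with none in female library 2. In glia it was near absent: 10 UMIs in 8516 oligodendrocyte-gate nuclei, 2 in 1335 precursor-gate nuclei and 4 in 1852 astrocyte-gate nuclei.

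Cacna1d, the Cav1.3 pore, was highest in the dopamine gate. Its level was 522, 544, 550 and 552 CPM in dopamine nuclei, 494, 497, 497 and 488 CPM in glutamate nuclei and 417, 425, 454 and 374 CPM in GABA nuclei. The Slc26a7 gate held 363, 389, 318 and 360 CPM. The dopamine libraries lay above every library of the other neuron gates, and the glutamate libraries above every GABA library. The log2 fold change was 0.44 ± 0.07 against GABA nuclei (adjusted p = 1.62e-05) and 0.63 ± 0.10 against the Slc26a7 gate (1.59e-05), and both held in each of 16 alternatives. Against glutamate nuclei it was 0.20 ± 0.07 (0.0331), and this call was lost in 10 of 16 alternatives, each library left out in turn among them, where the difference stayed between 0.13 and 0.22. The mean share of nuclei with a Cacna1d UMI ran the same way at 2000 UMIs, at 60.9% ± 1.64 in dopamine, 59.0% ± 1.00 in glutamate and 51.1% ± 3.30 in GABA nuclei. The dopamine and glutamate shares overlapped, and in female library 1 the dopamine share was the lower (59.8% and 60.0%).

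Cacna1c, the Cav1.2 pore that couples calcium entry to gene transcription, had its lowest mean among neurons in the dopamine gate. Dopamine nuclei held 121, 142, 129 and 135 CPM and glutamate nuclei 163, 182, 183 and 178 CPM, without overlap. The difference was -0.35 ± 0.09 (adjusted p = 0.00264). Against GABA nuclei, at 146, 161, 168 and 153 CPM, it was -0.19 ± 0.09 and did not pass (0.104). The L-type pair thus took opposite signs in dopamine against glutamate nuclei, with Cacna1d higher and Cacna1c lower.

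The T-type genes split within dopamine nuclei. Cacna1i (Cav3.3), whose current inactivates slowly, stood at 11.04, 6.53, 2.24 and 9.17 CPM in dopamine nuclei, from 22 UMIs in all. GABA nuclei held 53.3, 58.1, 49.0 and 60.7 CPM and glutamate nuclei 48.0, 55.2, 64.4 and 46.0 CPM. Every dopamine library lay below every library of the other neuron gates, and their range took in that of the astrocyte and precursor gates, which held 6.24 to 6.90 and 2.84 to 7.16 CPM. The log2 fold change was -2.89 ± 0.28 against GABA nuclei (adjusted p = 9.59e-10), or 7.43-fold lower, and -2.85 ± 0.28 against glutamate nuclei (1.15e-09). Both were called in all 16 alternatives, at -3.18 to -2.21 and -3.18 to -2.22.

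At 2000 UMIs 1.58% ± 1.04 of dopamine nuclei held a Cacna1i UMI, against 9.87% ± 0.594 of GABA and 9.74% ± 1.33 of glutamate nuclei. In astrocyte-gate nuclei, whose median depth before thinning was 3310.5 UMIs against 9113 in the dopamine gate, the share was 1.23% ± 0.441, and in oligodendrocyte-gate nuclei 0.0903% ± 0.0800. The dopamine share lay above the oligodendrocyte one and within 1 SD of the astrocyte one. The paired difference from GABA nuclei was -8.29 percentage points and negative in 4 of 4 libraries. With 4 libraries a two-sided exact sign-flip permutation test cannot reach a p under 0.05. In the Slc26a7 gate Cacna1i was 58.8, 24.6, 27.6 and 23.5 CPM, above each dopamine library (dopamine minus Slc26a7 gate -2.21 ± 0.49, adjusted p = 0.00140).

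Cacna1g (Cav3.1), a main T-type pore of burst-firing neurons, was well represented in dopamine nuclei at 157, 151, 119 and 126 CPM. GABA nuclei held 134, 150, 122 and 135 CPM and could not be told from them (0.09 ± 0.11, adjusted p = 0.582). The Slc26a7 gate held 93.1, 44.4, 69.1 and 66.6 CPM, below every library of the other neuron gates. Dopamine nuclei were higher than that gate (1.06 ± 0.21, 0.000468), and the Slc26a7 gate was lower than GABA nuclei (-0.97 ± 0.20, 0.00103). In that last comparison 10.4% of genes were called (6.01% lower in the Slc26a7 gate), and 2 of the 9 channel genes, both lower there. The other was Hcn4 (-1.71 ± 0.52, 0.0287), which rests on the 5 UMIs and was lost in 7 alternatives. Cacna1g in dopamine against glutamate nuclei (0.33 ± 0.11, 0.0243) was lost in 9 of its alternatives, among them DESeq2 (0.0537) and the libraries female 1 (0.228), female 2 (0.115) and male 2 (0.0563) left out in turn.

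Cacna1h (Cav3.2), the T-type pore blocked by low nickel and zinc, separated glutamate nuclei from both other large neuron gates. Its level was 53.8, 39.2, 49.2 and 36.7 CPM in dopamine nuclei, 48.6, 56.2, 46.8 and 61.8 CPM in GABA nuclei and 24.98, 26.7, 34.6 and 22.1 CPM in glutamate nuclei. The glutamate libraries lay below every dopamine and GABA library. Dopamine nuclei exceeded them by 0.78 ± 0.18 (adjusted p = 0.000991) and GABA nuclei by 0.96 ± 0.13 (2.20e-06), while dopamine and GABA nuclei differed by -0.18 ± 0.17 (0.467). Between GABA and glutamate nuclei 13.8% of genes were called (7.05% higher and 6.79% lower in GABA nuclei), and 5 of the 9 channel genes: Hcn3, Hcn4 and Cacna1h higher, Cacna1d (-0.23 ± 0.07, 0.0176) and Nalcn lower in GABA nuclei. Without female library 1 or male library 2 the Cacna1d call was lost (0.0890 and 0.165).

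Nalcn, the sodium leak pore, was highest in glutamate nuclei. Its level was 547, 503, 527 and 506 CPM there, 444, 428, 421 and 362 CPM in GABA nuclei and 338, 345, 348 and 332 CPM in dopamine nuclei. The 3 gates did not overlap. Dopamine nuclei were 1.46-fold lower than glutamate nuclei (-0.54 ± 0.08, adjusted p = 4.28e-06), a call kept in 16 of 16 alternatives. Against GABA nuclei the difference of -0.22 ± 0.08 (0.0460) was lost in 11 of 16, among them DESeq2 (0.0612) and each library left out in turn. GABA nuclei were lower than glutamate nuclei (-0.33 ± 0.07, 0.00198).

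Outside neurons the set divided by glial type. Averaged over the 4 neuron gates and the 3 glia gates, all 9 genes were higher in neurons, from 0.63 ± 0.12 (Hcn2) to 5.61 ± 0.21 (Cacna1g) on the log2 scale; in that fit 72.3% of 12828 genes were called (35% of all tested higher in neurons). The average hid Hcn2, so the oligodendrocyte gate was also set against the neuron gates, a contrast chosen after the levels had been seen. There 77.8% of genes were called (41.4% higher and 36.3% lower in oligodendrocytes), and all 9 channel genes: Hcn2 higher (2.01 ± 0.08, adjusted p = 9.60e-25, 4.02-fold) and the other 8 lower, from -2.44 ± 0.08 (Nalcn) to -5.46 ± 0.22 (Cacna1g). Hcn2 in oligodendrocyte-gate nuclei was 190, 170, 137 and 164 CPM, above every library of every other gate. Scaling by library totals moved the median of all genes in this contrast by 0.41, and Hcn2 lay between 1.59 and 2.10 over its 15 alternatives.

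Transcripts of the other cell class were sparse in that gate. The 4 neuron markers Snap25, Rbfox3, Syt1 and Grin1, all with UMIs, summed to 114 to 158 CPM per library in oligodendrocyte-gate nuclei, against 3280 to 8185 CPM over the neuron gates. Snap25 and Syt1 stood at 5.86% and 1.58% of their mean over the neuron gates, Cacna1c at 2.34%, Nalcn at 13.6% and Hcn2 at 284%. In the opposite direction, the myelin genes Mbp, Mag and Cldn11 in neuron gates reached 0.461% to 1.19% of their oligodendrocyte level, while Hcn2 there reached 21.4% (dopamine) to 51.6% (Slc26a7 gate). At 2000 UMIs 25.2% ± 2.00 of oligodendrocyte-gate nuclei held an Hcn2 UMI, against 4.83% ± 1.45 of precursor-gate and 1.01% ± 0.351 of astrocyte-gate nuclei. Before thinning the shares were 30.5%, 7.48% and 1.78%, at median depths of 2400.5, 2798 and 3310.5 UMIs. In the neuron gates the share at 2000 UMIs ran from 7.14% (dopamine) to 13.8% (Slc26a7 gate). Before thinning, at median depths of 7515 to 9113 UMIs, it was 28.9% (dopamine), 35.0% (glutamate), 35.6% (GABA) and 48.7% (Slc26a7 gate). The higher Hcn2 level of oligodendrocyte-gate nuclei is thus relative to total UMIs.

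Among glia the precursor gate held the highest mean levels of Nalcn, Cacna1c, Cacna1d, Hcn3 and Cacna1g, and the astrocyte gate those of Cacna1h and Cacna1i. Nalcn there was 439, 437, 412 and 387 CPM, within the range of GABA nuclei and above every dopamine library, whereas astrocyte-gate nuclei held 2.50 to 10.2 CPM. Cacna1c was 59.1, 81.3, 78.7 and 101 CPM in precursors and at most 5.79 CPM in any library of the other glia gates. Against the mean of the other glia gates 55.3% of genes were called (27.3% higher), and 6 of the 9 channel genes, all higher: Cacna1c (4.63 ± 0.18, adjusted p = 8.83e-25), Nalcn (4.51 ± 0.11, 2.36e-32), Cacna1d (2.00 ± 0.11, 1.21e-19), Cacna1g, Hcn3 and Cacna1i. Cacna1g, Hcn3 and Cacna1i rest on 21, 17 and 22 precursor UMIs; Cacna1g was lost without male library 2 (0.0654) and with doublets kept (0.95 in place of 2.03, 0.0714), Hcn3 without female library 1 (0.181) or 2 (0.0539), and Cacna1i without female library 1 (0.117), female library 2 (0.0506) or male library 2 (0.0863), with doublets kept (0.0568), at a gate threshold of 3 UMIs (0.0598) and in nuclei of 3000 to 20000 UMIs (0.148). The 4 neuron markers, all with UMIs, summed to 897 to 1082 CPM in precursors and to 83.7 to 230 CPM in astrocytes. Snap25 stood at 36.1% and Syt1 at 13.6% of the neuron mean in precursors, beside 104% for Nalcn, 52.4% for Cacna1c and 45.4% for Cacna1d; their part in the precursor levels was not tested.

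Astrocyte-gate nuclei kept Cacna1d among the L-type genes. Its level was 87.8, 144, 186 and 123 CPM, or 29.8% of the neuron mean, above every oligodendrocyte-gate library (11.8 to 23.0 CPM). Snap25 and Syt1 stood at 7.32% and 1.32% of their neuron mean in the same nuclei. Cacna1h and Cacna1i were at 23.3% and 17.9%, against 12.2% and 14.4% in precursors, and the other 6 genes were low, with Cacna1c at 2.48 ± 1.61 CPM.

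Across the precursor gate and 2 sets of oligodendrocyte-gate nuclei, Hcn2 and Nalcn ran in opposite directions. The sets were cut after the levels had been seen. They were 917 nuclei with Opalin and neither Hapln2 nor Klk6, and 2550 with Hapln2 or Klk6 and no Opalin. The rest of the 8516 nuclei of that gate, with both kinds of marker or neither, were left out. These genes mark different populations of mature oligodendrocytes, and no order in time was measured. Hcn2 was 22.4, 35.9, 17.9 and 27.7 CPM in precursors, 83.3, 64.0, 22.6 and 47.5 CPM in the Opalin set and 225, 202, 157 and 227 CPM in the Hapln2 or Klk6 set. Nalcn was 439, 437, 412 and 387 CPM, then 102, 129, 137 and 114 CPM, then 32.7, 24.1, 23.5 and 22.9 CPM. Each library showed both orders. Cacna1d went from 206 ± 8.36 to 34.8 ± 13.8 and 15.9 ± 9.39 CPM, and Cacna1c from 80.0 ± 17.1 to 2.53 ± 1.99 and 3.42 ± 3.59 CPM. Snap25 ran from 389 ± 21.9 to 75.7 ± 25.3 and 51.6 ± 9.75 CPM over the same sets, and its part in the Nalcn and Cacna1d levels was not tested. These are levels without a test.

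**Figure D4:**
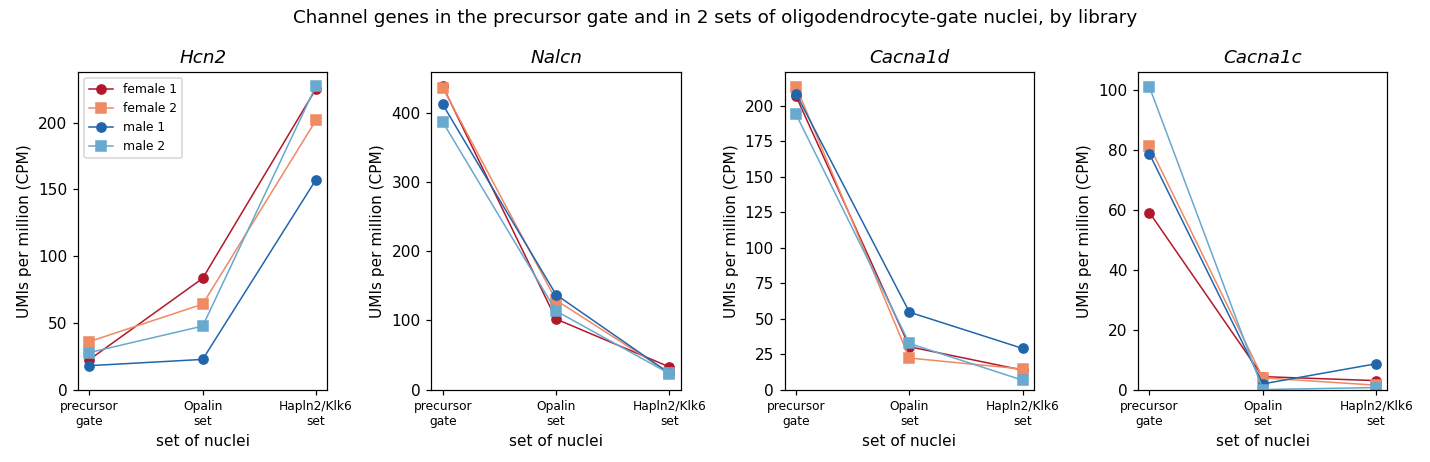
Level (y axis, CPM) of Hcn2, Nalcn, Cacna1d and Cacna1c in the precursor gate, the Opalin set and the Hapln2 or Klk6 set of oligodendrocyte-gate nuclei (x axis), with a line joining the values of each library. In each of the 4 libraries Hcn2 is highest and Nalcn lowest in the Hapln2 or Klk6 set.

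The promoters of Hcn2 and Nalcn are shown because these genes ran in opposite directions over the sets above. RefSeq (GRCr8) tables held promoters for 4 of the 9 genes: Hcn2, Cacna1c, Cacna1d and Nalcn. The 250 bases before the start were searched on both strands for the GC box, GGGCGG or its reverse complement CCGCCC, counting overlapping matches. Capitals mark the matches, and both genes lie on the minus strand, Hcn2 at chr7:10639458-10639707 and Nalcn at chr15:107147859-107148108.
Hcn2: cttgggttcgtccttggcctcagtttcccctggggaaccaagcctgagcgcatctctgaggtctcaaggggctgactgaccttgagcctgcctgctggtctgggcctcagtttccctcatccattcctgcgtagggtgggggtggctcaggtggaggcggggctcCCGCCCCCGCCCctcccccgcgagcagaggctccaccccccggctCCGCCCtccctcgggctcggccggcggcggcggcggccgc
Nalcn: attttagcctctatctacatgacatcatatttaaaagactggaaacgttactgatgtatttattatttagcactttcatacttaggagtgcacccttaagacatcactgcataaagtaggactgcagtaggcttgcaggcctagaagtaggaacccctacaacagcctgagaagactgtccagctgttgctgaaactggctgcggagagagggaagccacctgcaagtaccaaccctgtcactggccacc
The Hcn2 window held 3 matches at 71.6% G and C, and the Nalcn window none at 45.6%. Cacna1d had 9 matches (88.8% G and C) and Cacna1c none (54.4%), and 30.47% of 33469 RefSeq promoters of this length held at least 1. A match describes letters and no binding was measured.

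Genes that work with these pores were counted from lists of partners. Among 5 HCN partners, 3 passed the filter on low counts and 2 were called, both higher in dopamine than in GABA nuclei (15.4% of all genes were). These were the ubiquitin ligase gene Nedd4l (1.17 ± 0.08) and Pex5l, which encodes the HCN trafficking subunit TRIP8b (0.75 ± 0.13). Both were also higher than in glutamate nuclei (0.89 and 0.37). The Pex5l difference from glutamate nuclei was lost in 9 alternatives and was 0.15 (adjusted p = 0.470) without male library 1 and 0.38 (0.0695) without female library 1. The list median was 0.75 against GABA nuclei, beside -0.02 for all genes.

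Pex5l also stood out among oligodendrocytes with Hcn2. It was 3727 ± 653 CPM in oligodendrocyte-gate nuclei, 547 ± 90.4 CPM in dopamine nuclei and 33.1 ± 17.5 CPM in precursors. In the oligodendrocyte against neuron contrast Pex5l was higher (3.60 ± 0.09, adjusted p = 1.73e-31), while Nedd4l (-2.86 ± 0.09) was lower. In the Opalin set Pex5l was 3395 ± 746 CPM, and in the Hapln2 or Klk6 set 2843 ± 498 CPM, so it did not follow the order of Hcn2 between those sets.

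High voltage-activated calcium pores were higher in dopamine nuclei. Of 5 listed, 3 passed the filter, and all 3 were called higher than in GABA and in glutamate nuclei, as were 15.4% and 13.8% of all genes. Cacna1e, the R-type pore, reached 1146 ± 46.2 CPM in dopamine nuclei against 520 ± 62.2 in GABA nuclei (1.21 ± 0.08, adjusted p = 1.97e-13) and 485 ± 40.2 in glutamate nuclei (1.32 ± 0.08, 2.88e-14). The N-type pore Cacna1b was higher by 0.56 ± 0.07 and 0.48 ± 0.07, and the P/Q-type pore Cacna1a by 0.51 ± 0.08 and 0.53 ± 0.07. With Cacna1d, then, 4 high voltage-activated or L-type pores were called higher in dopamine nuclei against both gates. The other L-type pore, Cacna1c, was lower than in glutamate nuclei (-0.35, adjusted p = 0.00264), and Cacna1i was lower against both; the Cacna1d call against glutamate nuclei is the one lost in most alternatives.

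Auxiliary subunits moved both ways. Of 14 listed, 13 passed the filter, and 5 were higher and 3 lower in dopamine than in GABA nuclei, with a list median of 0.05. Of all genes 15.4% were higher and 16.8% lower. Cacna2d1, an α2δ subunit that binds gabapentin, was 537 ± 56.4 CPM in dopamine nuclei, 130 ± 55.2 in GABA nuclei and 1444 ± 172 in glutamate nuclei. It was thus higher than GABA nuclei (2.17 ± 0.15) and lower than glutamate nuclei (-1.34 ± 0.14, adjusted p = 3.37e-09). Cacng3 (0.92 ± 0.09), Cacng4 (-1.21 ± 0.17) and Cacna2d4 (-1.04 ± 0.19) were the other large changes against GABA nuclei, and 3 higher and 3 lower were called against glutamate nuclei (13.8% and 13.3% of all genes). In oligodendrocyte-gate nuclei all 13 were lower than in neurons, as were 36.3% of all genes.

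Of the NALCN complex genes, 3 had a row and passed the filter. Unc79 stood at 494 ± 44.1 CPM in dopamine and 490 ± 50.3 CPM in glutamate nuclei, and none of the 3 was called between those gates (adjusted p of 0.12 to 0.50 by edgeR), where Nalcn itself was lower in dopamine nuclei. Against GABA nuclei, where 32.2% of all genes were called, Unc79 was higher (0.23 ± 0.08, 0.0365) and Fam155b, which encodes an auxiliary subunit of the channel, lower (-1.04 ± 0.40, 0.0427). Unc79 lost its call without female library 1 (0.0765), male library 1 (0.212) or male library 2 (0.177). The same call was lost with scaling by library totals (0.136), no filter (0.106) and no library block (0.0707). A gate threshold of 1 UMI (0.0959) and nuclei of 3000 to 20000 UMIs (0.144) lost it too. Fam155b lost its call with each library left out in turn (0.0629 to 0.180) and with DESeq2 (0.0884). That call was also lost with no library block (0.0524), in the fit of all 7 gates (0.0736) and with nuclei of 2 gates set aside (0.0948). Nuclei of 3000 to 20000 UMIs lost it as well (0.0661). In precursors Unc79 and Unc80 were 351 ± 20.3 and 205 ± 17.2 CPM, against 9.54 ± 2.48 and 4.71 ± 1.83 CPM in oligodendrocyte-gate nuclei. In the latter contrast with neurons Unc79 and Unc80 lay at -5.25 and -5.66, below Nalcn at -2.44.

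Calcium-activated potassium channels and calcium handling genes differed gene by gene. Kcnn3, the SK3 channel that paces dopamine neurons, was 325 ± 22.7 CPM in dopamine nuclei, 57.4 ± 2.09 in GABA nuclei and 64.0 ± 6.25 in glutamate nuclei (2.57 ± 0.09 and 2.43 ± 0.08, adjusted p = 5.27e-20 and 6.38e-20). It was the only one of 3 tested to differ from GABA nuclei, and Kcnn2 was lower than in glutamate nuclei (-0.37 ± 0.12, 0.0180), a call lost without female library 1 (-0.24, 0.207) or male library 2 (-0.39, 0.0622). Of 16 calcium buffers, pumps, exchangers and store channels tested, 4 were higher and 6 lower than in GABA nuclei, beside 15.4% and 16.8% of all genes. The buffer gene Calb1 (2.76 ± 0.24) and the IP3 receptor gene Itpr1 (1.58 ± 0.11) were higher, and the ryanodine receptor gene Ryr2 (-1.82 ± 0.11) and Pvalb (-1.69 ± 0.50) lower. Against glutamate nuclei 3 were higher and 8 lower (13.8% and 13.3% of all genes), led by Ryr2 (-2.32 ± 0.11).

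**Figure D5:**
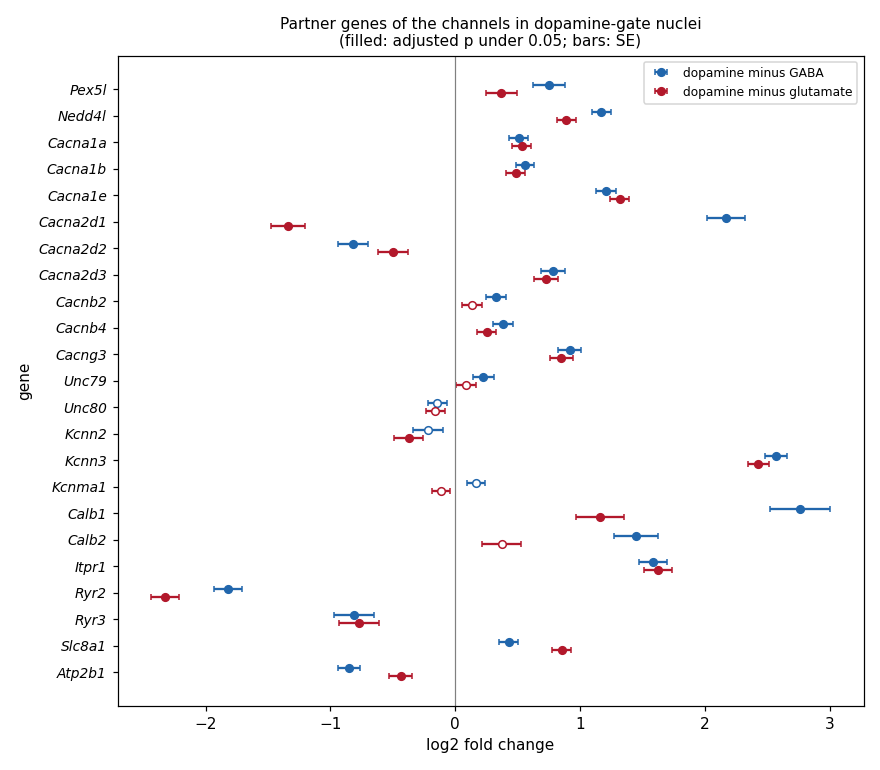
Log2 fold change (x axis) of listed partner genes (y axis) in dopamine-gate nuclei against GABA nuclei (blue) and glutamate nuclei (red), with bars of 1 SE and filled points where the adjusted p is under 0.05. Kcnn3 lies at 2.57 and 2.43, and Cacna2d1 takes opposite signs in the 2 comparisons (2.17 and -1.34).

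Within the dopamine gate, nuclei with Aldh1a1 and no Calb1 UMI (11 to 19 per library) were set against nuclei with Calb1 and no Aldh1a1 UMI (19 to 26). These genes mark ventral and dorsal dopamine neurons of the midbrain. Cacna1c was 133, 216, 122 and 193 CPM in the Aldh1a1 set and 103, 68.6, 100 and 76.5 CPM in the Calb1 set, without overlap. It was the only channel gene called (0.94 ± 0.26 higher in the Aldh1a1 set, adjusted p = 0.0320), where 4.09% of 5773 genes were called (1.7% higher in the Aldh1a1 set) and 5 of the 9 channel genes passed the filter on low counts. Cacna1d was 519 ± 121 and 515 ± 49.3 CPM and differed by 0.00259 ± 0.16 (adjusted p = 0.999). The Cacna1c call was lost without female library 2 (0.65, 0.341), without male library 2 (0.81, 0.155), with DESeq2 (0.576) and at a gate threshold of 1 UMI (0.0897). The Calb1 set also held more Slc26a7 and Gad2, at 117 and 166 CPM against 14.7 and 8.29 CPM, and their part in the result was not tested.

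Partner genes differed between these sets as well. Cacna1e (0.49 ± 0.14, adjusted p = 0.0391) and Pex5l (0.88 ± 0.22, 0.0155) were higher in the Aldh1a1 set. Cacna2d3 (-1.23 ± 0.19, 5.30e-05), Cacng3 (-0.94 ± 0.22, 0.00802) and, leaving out Calb1, on which the sets were cut, 3 of 12 calcium handling genes were lower there, beside 2.39% of all genes. These were Ryr3 (-1.47 ± 0.23), Ryr2 (-1.44 ± 0.27) and the sodium-calcium exchanger gene Slc8a1 (-1.19 ± 0.15). None of the 3 calcium-activated potassium channels or 2 NALCN complex genes tested was called. The calls for Pex5l and Cacna1e were lost in 6 and 9 alternatives, among them DESeq2 and every library left out except male library 2 for Pex5l, and DESeq2 also lost Cacng3 (0.200) and Ryr2 (0.0583). Cacng3 was lost without male library 2 (0.106).

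No channel gene differed between the sexes at an adjusted p under 0.05. With 2 libraries per sex, 0 of 7 tested were called in dopamine nuclei, 0 of 9 in GABA nuclei, 0 of 9 in glutamate nuclei and 0 of 9 over all kept nuclei, where 0.0668%, 0.0936%, 0.0556% and 0.0312% of all genes were called. DESeq2 also called 0 in each. Of the partner genes, Cacna2d1 was called lower in female than in male GABA nuclei by edgeR, 1 of the 14 auxiliary subunits tested. No other partner gene counted here was called between the sexes. An unadjusted edgeR p under 0.05 was reached by 1, 0, 0 and 1 of the channel genes. Over all genes tested it was reached by 419 of 8988, 790 of 11753, 424 of 12599 and 672 of 16037. Hcn2 was the channel gene in both cases. In dopamine nuclei both female libraries (38.6 and 54.8 CPM) lay above both male ones (26.8 and 21.0), for a log2 difference of 0.95 ± 0.31 and an adjusted p of 0.863. Over all nuclei the difference was 0.43 ± 0.14 (0.902), and in GABA and glutamate nuclei it was -0.03 ± 0.24 and 0.22 ± 0.17. The sex difference was also compared between gates: 0 of the 9 genes were called for dopamine or for GABA against glutamate nuclei (0% and 0.0161% of all genes called), with Cacna1g at 0.51 ± 0.19 and 0.35 ± 0.15 before adjustment (adjusted p = 0.952 and 1).

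Likeness of pattern was described over the 28 sums of gate and library as Pearson's r of log2(CPM + 1), among 11553 genes. These sums share libraries and differ in depth, so r is a description and carries no test. Hcn2 was set apart from the other channel genes, with r of -0.26 (Cacna1d) to 0.50 (Nalcn), whereas Hcn3 and Cacna1g reached 0.97 and Cacna1c and Nalcn 0.92. The genes most like Hcn2 were Ttll7 (0.94), Trpc1 (0.94) and the potassium channel gene Kcna6 (0.93). Cacna1c was nearest to Myt1l (0.99), a neuronal transcription factor, then Cyp4x1 and Lrfn5. Cacna1d was nearest to the scaffold gene Shank3 (0.99), the P/Q-type pore gene Cacna1a (0.98) and Mapk11. Nalcn was nearest to Ppfia2 (0.99), Jakmip2 and Galnt13, and Cacna1g to the kinesin gene Kif5a (0.99), Syngr3 and AABR07019254.2. For Hcn3 these were Matk, Tmem130 and Sez6l2, for Hcn4 Stk32c, Kpna1 and Ahr, for Cacna1h Slc4a3, Prrt2 and Ankrd13d, and for Cacna1i Kcnc1, Ptchd4 and Nsf, with r of 0.92 to 0.98.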

How the data were processed

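Nuclei were isolated from frozen, pooled tissue and sorted before 10x Genomics library preparation, per the labels' protocols. The authors deposited raw UMI counts per gene and barcode, made with Cell Ranger on rn6 per the submitters' processing notes; the file headers give software version 3.0.2. The annotation, the barcode filter and any removal of free RNA are not stated in those sources.

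Barcodes were dropped for fewer than 200 genes or mitochondrial UMIs above 5% (6), as were the highest Scrublet scores (scanpy 1.11.5) at 0.8% per 1000 barcodes (980). Gates followed the order dopamine, Slc26a7, GABA, glutamate; 122 nuclei of a neuron and a glia gate, or of 2 glia gates, were set aside, and 5731 were ungated. Thresholds for the Slc26a7 and glia gates and this order were chosen here.

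Counts were summed per library and gate (at least 10 nuclei) and tested with edgeR 4.0.16 in R 4.3.3 (quasi-likelihood, TMM, its filter on low counts, adjusted p under 0.05 over all genes), with library as a block except for sex. SE was taken from the F statistic (the size of the log2 fold change divided by its square root). Neuron comparisons used 4 gates, glial ones 7. Shares came from nuclei thinned to 2000 UMIs and used exact sign-flip tests over libraries (scipy 1.17.1). On simulated counts for the dopamine against GABA comparison (11341 genes), 72% of genes changed by 1 and 99% of those changed by 2 on the log2 scale were recovered, and 1.72% of calls were false. For sex in dopamine nuclei these were 52% and 100%. Only genes with at least 200 UMIs were changed, and the dispersion was fixed at 0.02. In dopamine nuclei Hcn2, Hcn3 and Cacna1h held 110, 109 and 141 UMIs, and recovery at such counts was not tested.

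The channel genes, partner lists and comparisons were chosen with earlier results of these data known. All 9 genes are named in each comparison, with up to 4 called genes of largest change per partner list and the 3 genes of highest r among those with at least 5 CPM. Nalf1, Nalf2, Fam155a and Pecam1 had no row of that name. A listed partner gene and a marker gene are not reported here. Alternatives were DESeq2 1.42.0, other scaling, gate thresholds of 1 and 3 UMIs, doublets kept, stricter nuclei (at least 500 genes, at most 1% mitochondrial UMIs), nuclei of 3000 to 20000 UMIs, no filter, no block, and each library left out.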

Additional observations from a re-analysis of the deposited data

Results flagged for a closer look

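Of 63 sets of 4 libraries (9 genes in 7 gates), 3 held a library whose gap to its nearest neighbour, divided by the whole range, exceeded Dixon's 95% critical value; chance flags about 1 in 20 such sets. Cacna1i in the Slc26a7 gate was 58.8 CPM in female library 1, against 23.5 to 27.6 CPM in the other libraries. Without that library Cacna1i remained lower in dopamine nuclei than in the Slc26a7 gate, with an adjusted p of 0.0214 by edgeR. Cacna1i in the astrocyte gate was 6.24 CPM in female library 2, against 6.79 to 6.90 CPM. Hcn4 in the precursor gate was 1.79 CPM in male library 2, from 2 UMIs, and 0 in the others.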

How the results depend on the processing

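Of 806 recomputed fold changes of channel genes called in the reported fit or in an alternative, 731 kept direction and call, 70 lost the call, 5 gained one and none changed direction; of 915 values of uncalled genes, 89 had the other sign. Of the named partner genes, 836 recomputed values kept direction and call, 49 lost the call and none changed direction. Members called moved from 1 to 0 between Aldh1a1 and Calb1 nuclei (DESeq2; gate threshold of 1 UMI; 0 to 1 with libraries left out). From GABA to glutamate nuclei they moved from 5 to 3 in the fit of all 7 gates and to 2 to 5 with libraries left out. For the Slc26a7 gate against GABA nuclei they moved from 2 to 1 (DESeq2, thresholds of 1 and 3 UMIs, nuclei of 2 gates set aside; 1 to 2 with libraries left out). Leaving out libraries gave 3 to 4 for dopamine against GABA and 4 to 5 for dopamine against glutamate nuclei.

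Over all genes, calls fell from 1569 to 980 without the library block (GABA against glutamate), from 1812 to 1175 with nuclei of 2 gates set aside (dopamine against Slc26a7 gate) and from 236 to 100 with DESeq2 (Aldh1a1 against Calb1). With nuclei of 2 gates set aside, male library 1 kept 5 nuclei in the Slc26a7 gate, so its sum was also left out. In the sex comparisons the largest counts came from leaving out a library: 55 over all nuclei without female 2 (5 in the reported fit), 40 in dopamine without male 2 (6), 216 in GABA (11) and 64 in glutamate nuclei (7) without female 1. Female 1 and male 1, and female 2 and male 2, share only a number; with it as a replicate block 0 channel genes were called in each sex comparison, and calls over all genes were 8, 26, 24 and 47. Across genes, the log2 difference of female 1 from female 2 correlated with that of male 1 from male 2 at 0.40 over all nuclei. This r was 0.07 in dopamine, 0.16 in GABA and 0.33 in glutamate nuclei. Without the library block the gate comparisons called 4 (dopamine against GABA), 5 (dopamine against glutamate) and 4 (GABA against glutamate) channel genes.

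Shares depend on depth: 48 of 63 moved by over 1 SD when thinned to 1000 UMIs and 55 of 63 without thinning. Scaling by library totals moved the median of all genes by up to 0.28 in neurons against glia and 0.41 in oligodendrocytes against neurons, and turned no called channel gene. Counts of 5 to 30 UMIs limit Hcn4 and Cacna1i in dopamine and Slc26a7 nuclei.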
